A study of Mus musculus with 4 samples.

Results

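Gluconeogenesis is the route by which hepatocytes make glucose from lactate, pyruvate, glycerol and amino acids, and its enzymes, together with the coactivators that raise their transcription, are described here in primary mouse hepatocytes given the liver X receptor (LXR) agonist GW3965. The members were chosen by name: Pcx, Pck1, Pck2, Fbp1, G6pc, Slc37a4, Tat, Ppargc1a and Crtc2. Every probe other than a control that carried a member's name on the array was taken. This gave 12 probes for 9 genes, of 55681 probes on each array, and 11 of the probes and all 9 genes were measured, of 24637 genes and named features in all.

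The hepatocytes were isolated from bl6 mice, as the strain is labelled, and grown in DMEM with 10% fetal bovine serum. Both groups were then held overnight in medium with 0.5% serum, 5 µM simvastatin, which blocks the synthesis of mevalonate and so of sterols, and 100 µM mevalonic acid, the product of the blocked step. One group also received 1 µM GW3965 and the other received DMSO, the solvent, so the statin and the low serum were shared by treated and control cells. The label of that treatment, "LXR against GW3965", was taken as exposure to the agonist. Each group had 2 arrays with the replicate letters a and b, called DMSO a, DMSO b, GW3965 a and GW3965 b below, and all 4 lay on 1 slide read in 1 scan. Whether the replicates were separate animals or cultures is not stated in the labels, so every p-value below measures only the spread between these samples, which may be technical.

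In the fasting liver glucagon, through cyclic AMP, and glucocorticoids raise the transcription of Pck1, G6pc and Tat, and insulin lowers it. The coactivator encoded by Ppargc1a (PGC-1alpha) and the CREB coactivator encoded by Crtc2 carry part of that signal to the promoters. Low serum in culture is not the fasting state of a liver. The labels name no glucagon, cyclic AMP analogue or glucocorticoid in the treatment medium, and whether it held any is not stated.

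Levels are given as the log2 of the processed signal relative to the 75th percentile of the same array, so that 0 is the level below which 75% of its probes lie. A difference is GW3965 minus DMSO on that scale, and a gap is replicate b minus replicate a within a group. Between 62.5% (DMSO a) and 69.1% (GW3965 b) of an array's probes were well above background, and 0 spots were saturated. The number of arrays limits the precision: an exact permutation test of 2 against 2 arrays cannot go below p = 0.333. The 4 LXR targets used as a check of exposure (Abca1, Abcg1, Srebf1 and Lpcat3) were each higher on both GW3965 arrays than on both DMSO arrays, with differences from 1.05 to 2.58, although 0 of them passed the adjusted threshold.

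GW3965 made no difference to a gluconeogenic gene that this design could separate from the spread between replicates. With limma's moderated test and Benjamini-Hochberg adjustment over all 24637 genes, 0 of 9 members had an adjusted p under 0.05, against a background of 0% of all genes. At an unadjusted p under 0.05 the count was also 0 of 9, where 0.824% of all genes passed. The GW3965 and DMSO arrays overlapped for 9 of 9 members, whereas 16.0% of all genes had groups that did not overlap. The mean was lower with GW3965 for 7 members and higher for 2, Pck2 and G6pc, and the median difference was -0.08, beside -0.006 over all genes. With no scaling between the arrays, an alternative chosen after seeing the data, 5 members had the lower mean. The tally turned over with 1 array left out: 7 members were higher and 2 lower without DMSO a, and likewise without GW3965 b. Leaving out 1 array unbalances the letters, so the gap between replicates enters the difference. The turn therefore restates that gap and does not test the direction with treatment. The adjusted p was 1.00 for each member.

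**Figure D1:**
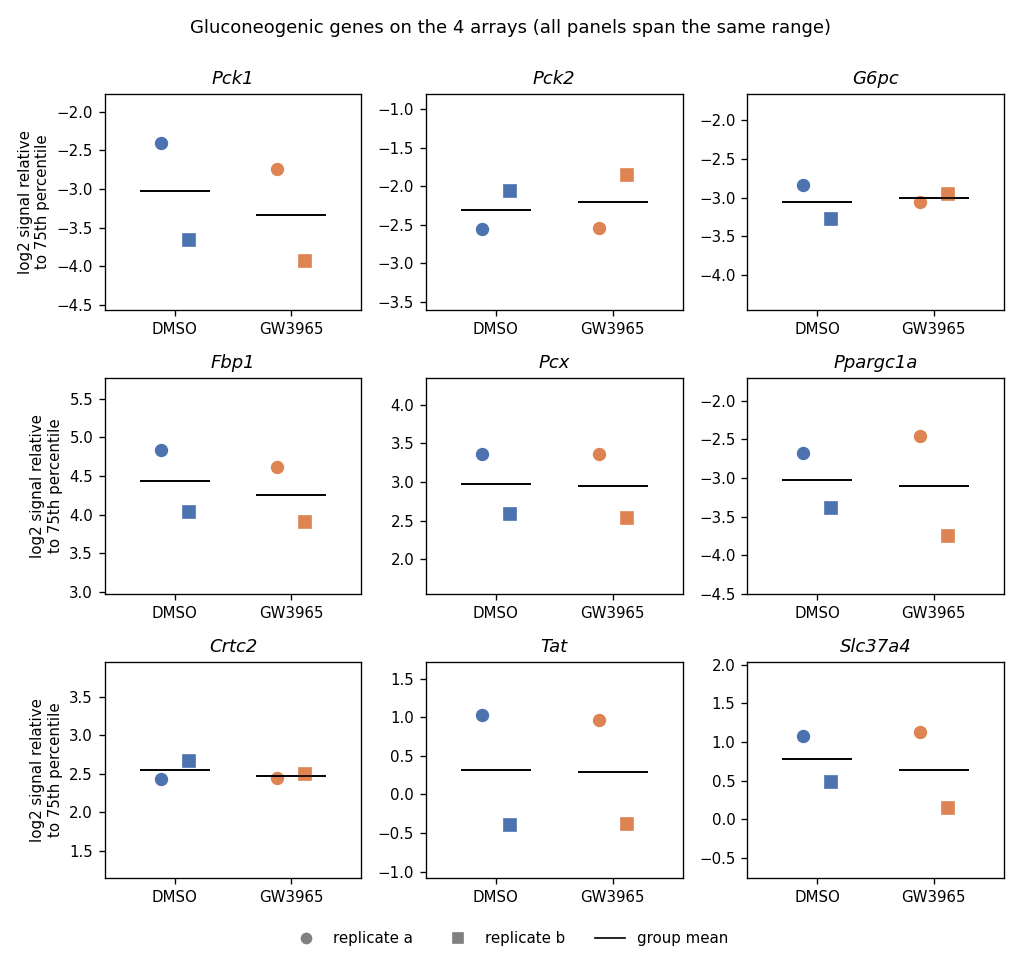
Level of each of the 9 genes on each of the 4 arrays, as log2 signal relative to the array's 75th percentile (vertical axis), 1 panel a gene, all panels spanning the same range around different centres. Circles and squares mark replicates a and b, colours mark DMSO and GW3965, and the short lines are group means. For Tat, Pck1, Ppargc1a, Pcx, Fbp1 and Slc37a4 both b arrays sit below both a arrays, and the group means lie between them.

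Larger than the treatment difference was the gap between replicates, which had the same sign in both groups for 8 of 9 members, and still for 8 with arrays centred on their median, where G6pc was lower on b in both groups and Crtc2 was mixed. Replicate b was lower than replicate a in DMSO and in GW3965 for 6 members (Pcx, Pck1, Fbp1, Slc37a4, Tat and Ppargc1a), where 31.8% of all genes did so. Replicate b was higher in both groups for Pck2 and Crtc2, where 43.4% of all genes did so. The sign was mixed for G6pc. The mean gap was larger in size than the treatment difference for 9 of 9 members and for 75.8% of all genes.

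The first committed step is the carboxylation of pyruvate to oxaloacetate by pyruvate carboxylase, a mitochondrial enzyme encoded by Pcx. Its probe (chr19:4621610-4621669, mm9) read 3.36 on DMSO a, 2.58 on DMSO b, 3.36 on GW3965 a and 2.54 on GW3965 b. The a arrays were high and the b arrays low in both groups, so the groups overlapped. The difference was -0.02 ± 0.41 (SE, n = 2 per group), with an unadjusted limma p of 0.957. The gap was -0.78 in DMSO and -0.82 in GW3965, which is a mean of 1.74-fold lower on b.

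Phosphoenolpyruvate carboxykinase turns oxaloacetate into phosphoenolpyruvate, with a cytosolic form encoded by Pck1 and a mitochondrial form encoded by Pck2. The Pck1 probe (chr2:172984307-172984366, mm9) read -2.40 and -3.66 on DMSO a and b, and -2.74 and -3.94 on GW3965 a and b. The lowest value was GW3965 b and the highest DMSO a, with the other two between them, so that the groups overlapped, although each GW3965 array was below the DMSO array of its letter. The group means were -3.03 ± 0.89 for DMSO and -3.34 ± 0.84 for GW3965 (SD, n = 2), and the difference was -0.31 ± 0.59 (SE) with an unadjusted limma p of 0.626. This was the lowest difference among the members. It was 0.32 without DMSO a and -0.94 without DMSO b, where the letters are unbalanced and the gap enters the difference. The gap was -1.26 in DMSO and -1.19 in GW3965, a mean of 2.34-fold lower on b. Background-corrected signals of Pck1 were low, at 103 and 47.8 in DMSO and 76.1 and 44.0 in GW3965 for a and b, and with the normexp background correction the gaps were -0.77 and -0.78.

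Pck2, the mitochondrial form, moved between the replicates in the other direction. Its probe (chr14:56168027-56168086, mm9) read -2.55 and -2.06 on DMSO a and b, and -2.54 and -1.86 on GW3965 a and b. The b arrays were the high ones in both groups. The difference between treatments was 0.10 ± 0.33 (SE, n = 2 per group), with an unadjusted limma p of 0.766, and the mean gap was 1.51-fold higher on b. Signals of Pck2 were low as well, and with normexp the gaps were 0.32 and 0.42 against 0.49 and 0.69.

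The Pck2 probe is printed at 10 spots of each array, which shows how far spot noise reaches. Spots free of outlier marks numbered 7 on DMSO a, 9 on DMSO b, 10 on GW3965 a and 9 on GW3965 b. They ran from -2.64 to -2.47, from -2.21 to -1.88, from -2.77 to -2.38 and from -1.95 to -1.80 in the same order. The spots of the a arrays and of the b arrays did not overlap within either group, whereas those of DMSO and GW3965 did for both letters. The SD over spots was 0.06, 0.09, 0.12 and 0.05 in that order, beside a median of 0.06 within an array over 310 such probes. Spots of 1 array share 1 RNA sample and are no replicates of the treatment. The other members had 1 spot a probe.

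**Figure D2:**
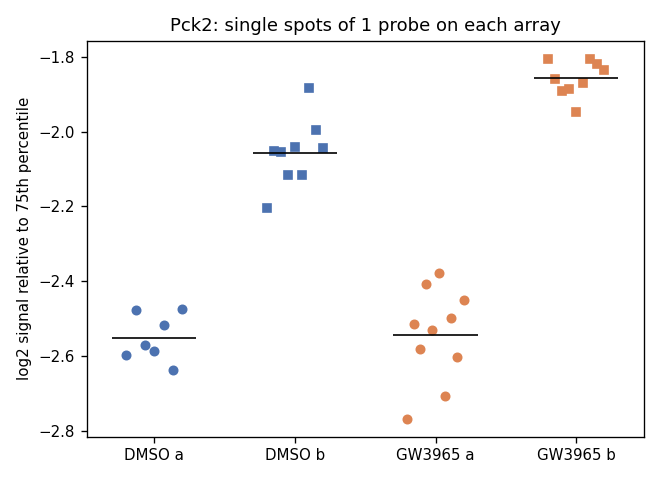
Level of every usable spot of the Pck2 probe on the 4 arrays, as log2 signal relative to the array's 75th percentile (vertical axis). Points are spots, 7 to 10 an array, and lines are their means. The spots of both b arrays lie above those of both a arrays.

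The promoters of the pair, and those of Ppargc1a and G6pc, are given as those of the hormone-controlled genes of the pathway, beside the mitochondrial form. Each is the stretch of 250 bases before the RefSeq transcript start in GRCm38.p6, written 5′ to 3′ on the gene's strand: chr2:173152823-173153072 on the plus strand for Pck1, chr5:51567726-51567975 on the minus strand for Ppargc1a, chr14:55540016-55540265 on the plus strand for Pck2 and chr11:101367466-101367715 on the plus strand for G6pc. Capitals mark the core of the cyclic AMP response element, to which CREB binds, as TGACG or its complement CGTCA.
Pck1: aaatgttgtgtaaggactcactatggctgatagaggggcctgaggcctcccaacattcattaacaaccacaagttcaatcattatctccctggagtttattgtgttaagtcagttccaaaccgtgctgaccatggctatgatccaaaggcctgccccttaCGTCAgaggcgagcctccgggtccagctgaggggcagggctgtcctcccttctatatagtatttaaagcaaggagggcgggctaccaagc
Ppargc1a: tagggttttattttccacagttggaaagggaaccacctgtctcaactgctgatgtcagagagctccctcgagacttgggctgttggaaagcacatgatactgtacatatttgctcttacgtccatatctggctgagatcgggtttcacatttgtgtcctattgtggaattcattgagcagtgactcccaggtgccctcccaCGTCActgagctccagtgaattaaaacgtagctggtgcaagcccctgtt
Pck2: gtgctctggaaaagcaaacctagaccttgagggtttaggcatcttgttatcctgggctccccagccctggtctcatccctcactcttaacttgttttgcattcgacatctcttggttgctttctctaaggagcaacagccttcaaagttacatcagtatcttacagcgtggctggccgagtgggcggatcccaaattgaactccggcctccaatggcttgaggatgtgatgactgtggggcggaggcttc
G6pc: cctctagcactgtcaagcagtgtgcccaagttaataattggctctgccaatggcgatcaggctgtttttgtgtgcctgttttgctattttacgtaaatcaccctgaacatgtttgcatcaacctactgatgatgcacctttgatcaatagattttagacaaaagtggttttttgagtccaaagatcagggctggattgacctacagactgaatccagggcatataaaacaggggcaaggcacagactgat
The core lay 90 to 86 bases before the start in Pck1 and 49 to 45 bases before it in Ppargc1a, and these letters were not in the windows of Pck2 and G6pc. The windows of Tat, Pcx and Fbp1 did not hold these letters either. A link between the letters and the gaps was not tested. RefSeq starts were listed for 8 of 9 members, with 11 windows, and 4 of the 11 held the core: those of Pck1 and Ppargc1a and 2 overlapping windows of Slc37a4. Over all 32817 windows of that length in the table the share was 17.7%. The same search on both strands found the palindrome TGACGTCA, which contains the core, in 0 of 11 and in 1.55% of all windows. The FOXO core GTAAACA was in 0 of 11 (3.16% of all), the glucocorticoid receptor's hexamer AGAACA in 0 of 11 (16.1%) and the LXR element, a direct repeat of AGGTCA with 4 bases between, in 0 of 11 (0.0152%). The same repeat with 1 base between was in 0 of 11 (0.0335%), and TATAAA in 2 of 11 (12.4%), one of them 29 to 24 bases before the start of G6pc. A match describes letters in the window, not a bound site.

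Fructose-1,6-bisphosphatase, encoded by Fbp1, removes a phosphate from fructose-1,6-bisphosphate and opposes phosphofructokinase. Its probe (chr13:62966175-62966234 on the minus strand, mm9) read 4.84 and 4.03 on DMSO a and b, and 4.62 and 3.90 on GW3965 a and b. Each GW3965 array was below the DMSO array of the same letter, but GW3965 a was above DMSO b. The difference was -0.18 ± 0.40 (SE, n = 2 per group), with an unadjusted limma p of 0.672. The gap was -0.81 in DMSO and -0.72 in GW3965, a mean of 1.70-fold lower on b.

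The last step releases free glucose and needs a pair of proteins of the endoplasmic reticulum: the catalytic subunit of glucose-6-phosphatase, encoded by G6pc, and the glucose-6-phosphate transporter, encoded by Slc37a4. The G6pc probe (chr11:101238947-101239006, mm9) read -2.84 and -3.28 on DMSO a and b, and -3.05 and -2.96 on GW3965 a and b. Both GW3965 values lay between the DMSO values. The difference was 0.05 ± 0.23 (SE, n = 2 per group), with an unadjusted limma p of 0.829. The gap was -0.44 in DMSO and 0.09 in GW3965, and the sign in GW3965 depended on the scaling, being -0.04 with arrays centred on their median and -0.08 with normexp. Background-corrected signals ran from 61.5 to 86.6.

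The transporter gene followed the replicates more closely than the catalytic subunit. The main probe of Slc37a4 (chr9:44210987-44211045, mm9) read 1.08 and 0.48 on DMSO a and b, and 1.12 and 0.15 on GW3965 a and b. Both a arrays were high and both b arrays low, with a difference of -0.14 ± 0.41 (SE, n = 2 per group), an unadjusted limma p of 0.748 and a mean gap of 1.72-fold lower on b. A second probe, listed under the clone AK040077 (chr9:44205736-44205795, mm9), read -4.95 and -5.48 in DMSO and -4.57 and -4.62 in GW3965 for a and b. The probe was dim, it was not well above background on DMSO b, and it passed the filter only through GW3965, where it read higher. Its difference of 0.62 therefore carries no test and no weight against the main probe.

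Tyrosine aminotransferase, encoded by Tat, starts tyrosine breakdown and is a classical glucocorticoid-induced gene of the liver. Its probe (chr8:112523207-112523266, mm9) read 1.03 and -0.40 on DMSO a and b, and 0.96 and -0.38 on GW3965 a and b. Values of the same letter lay close together across the treatments, and far apart between letters. The difference was -0.03 ± 0.66 (SE, n = 2 per group), with an unadjusted limma p of 0.969. The gap was -1.43 in DMSO and -1.34 in GW3965, a mean of 2.62-fold lower on b, and the mean gap was lower than that of Tat in 1.31% of all genes.

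Among the coactivators, Ppargc1a varied with the replicate and Crtc2 hardly varied. The Ppargc1a probe (chr5:51848928-51848987 on the minus strand, mm9) read -2.67 and -3.38 on DMSO a and b, and -2.45 and -3.75 on GW3965 a and b. Both DMSO values lay between the GW3965 values. The difference was -0.08 ± 0.52 (SE, n = 2 per group), with an unadjusted limma p of 0.887, and the mean gap was 2.01-fold lower on b. A second Ppargc1a probe (chr5:51846926-51846985 on the minus strand, mm9) was not well above background on any array. With normexp the gaps of the measured probe were -0.48 in DMSO and -0.82 in GW3965, against -0.71 and -1.30.

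Crtc2 encodes a coactivator that enters the nucleus on glucagon signalling and joins CREB, a step of protein movement that an mRNA level does not show. Its brighter probe (chr3:90067950-90068009, mm9) read 2.43 and 2.66 on DMSO a and b, and 2.44 and 2.49 on GW3965 a and b. All 4 arrays lay within the range of the DMSO pair, with a difference of -0.08 ± 0.19 (SE, n = 2 per group) and an unadjusted limma p of 0.698. The mean gap was 1.10-fold higher on b, and its sign in GW3965 turned from 0.05 to -0.08 with arrays centred on their median. The second probe (chr3:90066577-90066636, mm9) read -1.78 and -1.79 in DMSO and -1.84 and -1.73 in GW3965 for a and b. Its values were as close together, with a difference of -0.005 ± 0.19 (SE).

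**Figure D3:**
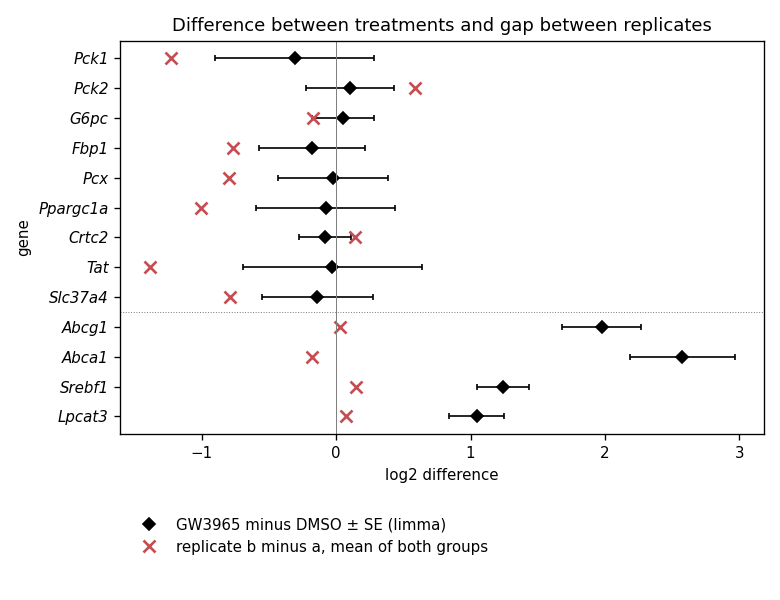
The GW3965 minus DMSO log2 difference (diamonds, with bars of 1 SE from limma without the replicate letter, n = 2 per group) and the mean over both groups of the replicate b minus replicate a gap (crosses), in log2 units on the horizontal axis, for the 9 members and, under the dotted line, the 4 LXR check genes. The members' differences run from -0.31 for Pck1 to 0.10 for Pck2, and their mean gaps reach -1.39 for Tat, while the LXR genes stand at 1.05 to 2.58. A mean gap can hide opposite gaps, as for Abca1 with -0.90 in DMSO and 0.54 in GW3965.

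The gaps ordered the members differently from the differences. From the lowest mean gap up, the order was Tat, Pck1, Ppargc1a, Pcx, Slc37a4, Fbp1, G6pc, Crtc2 and Pck2, at percentiles 1.31, 1.77, 2.74, 4.71, 4.84, 5.16, 26.7, 58.1 and 89.7 of the mean gap over all genes. Neighbours from Pcx to Fbp1 did not differ beyond the change in their own gaps between DMSO and GW3965. The 6 members that were lower on b stayed so in both groups under quantile normalization, centring on the median, normexp and no scaling, alternatives for the gaps that were chosen after seeing the data. The SD of the gap over all genes was 0.56 in DMSO and 0.56 in GW3965, and r between the gaps was 0.72 over 24637 genes, which share the 4 libraries and are no independent replicates.

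**Figure D4:**
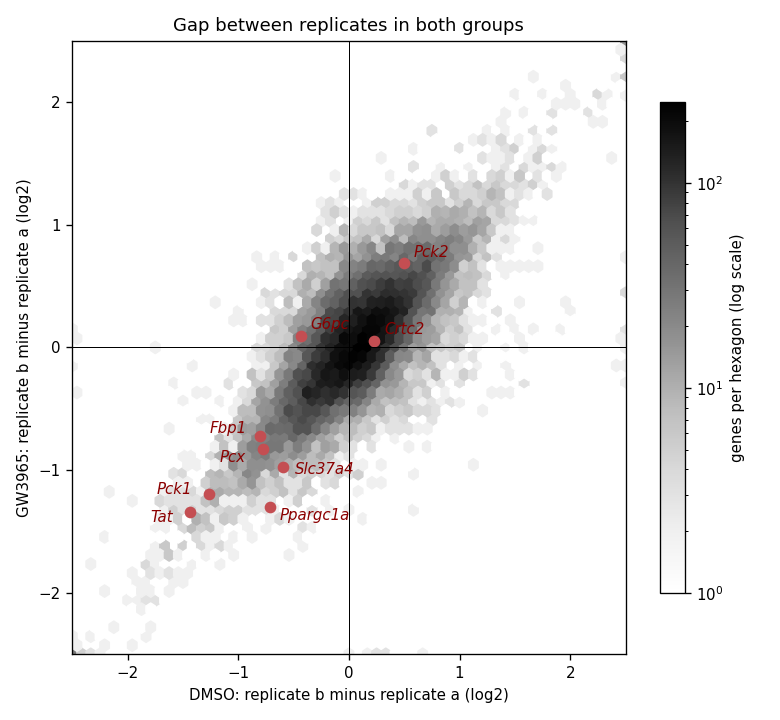
Gap between replicates (b minus a, log2) in DMSO on the horizontal axis and in GW3965 on the vertical axis, for all genes as grey hexagons shaded by the number of genes on a log scale and for the 9 members as red points. Genes beyond the axis range are drawn at its edge. Of the members, 6 lie in the lower left, Pck2 and Crtc2 in the upper right and G6pc in the upper left, where the signs of Crtc2 and G6pc in GW3965 turn with arrays centred on their median.

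Hepatocyte markers moved with the same letter. All 15 of 15 hepatocyte markers (Alb, Apoa1, Ttr and others) were measured and lower on b in both groups, beside 31.8% of all genes. Their median gaps were -0.73 in DMSO and -0.79 in GW3965, with a median treatment difference of -0.03. The count of 15 rests on the scaling, since the 75th percentile was higher on b in both groups. It was 545 and 605 in DMSO and 510 and 674 in GW3965 for a and b. The sign of small gaps, such as -0.10 for Alb and -0.14 for Rbp4 in DMSO, depends on that scaling. The markers were also summed as linear signal over the array's 75th percentile. The sum was 4640 on DMSO a, 3324 on DMSO b, 4839 on GW3965 a and 2740 on GW3965 b. In bulk RNA, fewer hepatocytes and less of these mRNAs per hepatocyte cannot be told apart.

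Markers of other cells that a hepatocyte preparation can hold moved in both directions. Over all genes, 31.8% were lower and 43.4% higher on b in both groups. Of 9 endothelial markers measured, 7 were higher and 1 lower on b in both groups, with sums of 39.9, 52.9, 42.2 and 55.9 in the array order above. Of 10 macrophage and leukocyte markers measured out of 11, 8 were lower on b (sums 71.9, 58.7, 82.1 and 62.3), and of 8 stellate cell and fibroblast markers out of 9, 2 were lower and 5 higher (sums 81.1, 58.7, 86.7 and 58.5). Of 6 cholangiocyte markers out of 7, 2 were lower and 3 higher (sums 62.7, 76.2, 57.5 and 64.0). Single genes carried much of these sums, Dcn with 46.8% to 84.7% of the stellate and fibroblast sum and Spp1 with 85.6% to 94.2% of the cholangiocyte sum. Cd68 made up 39.6% to 56.3% of the macrophage and leukocyte sum. Kdr, the endothelial marker that was lower on b in both groups, made up 24.2% to 42.4% of the endothelial sum. The kidney tubule, another gluconeogenic tissue, was checked with 4 measured markers of 6, with sums from 0.478 to 0.647, and Lrp2 and Umod were not measured. The part of any of these in the gaps of Pck1, Tat and the other members was not tested.

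The reactions that gluconeogenesis shares with glycolysis, and minor isoforms of its enzymes, gave no call by treatment either. Of 12 such genes 11 were measured, and 0 passed the adjusted threshold in either direction or an unadjusted p of 0.05. The groups overlapped for 11 of 11, while 16.0% of all genes had groups that did not overlap. The median difference was 0.0002. That median had no stable sign: it was -0.05 with arrays centred on their median, -0.12 without DMSO b, -0.19 without GW3965 a and 0.16 without GW3965 b. Fbp2, the muscle form of the bisphosphatase, differed by 0.17 ± 0.37 (SE, n = 2 per group). The malate dehydrogenases differed by -0.18 ± 0.24 for Mdh1 and -0.13 ± 0.23 for Mdh2. Replicate b was lower in both groups for 8 of the 11 and higher for 1, beside 31.8% and 43.4% of all genes.

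Genes of substrate entry and carriers gave the same count of 0 passing, of 19 measured. The groups did not overlap upward for 1 of them (background 9.41%) and downward for 2 (background 6.55%), and the median difference was -0.03. Aqp3, a glycerol channel, differed by 0.21 ± 0.18 and was the gene without overlap upward. Its probe was dim, at -5.04 to -4.75 over the arrays, and its difference was 0.02 with normexp. Mpc1, a subunit of the mitochondrial pyruvate carrier, differed by -0.17 ± 0.20. The glycerol kinase gene Gk, named after its values were seen, differed by -0.07 ± 0.18. Mpc1 and Gk were the pair without overlap downward, for Mpc1 by a slight margin, with 4.180 on GW3965 b and 4.181 on DMSO b. Slc2a2, the glucose transporter of hepatocytes, differed by -0.32 ± 0.32, and Slc16a1, a lactate carrier, by 0.21 ± 0.22 (SE, n = 2 per group), both with overlap. On b, 7 of the 19 were lower and 9 higher in both groups, beside 31.8% and 43.4% of all genes.

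Hormone receptors, kinases and transcription factors of the pathway were measured for 35 of 37 listed genes, without Foxo4 and Nr4a3, and 0 passed in either direction. Groups did not overlap upward for 4 of 35 and downward for 1 of 35, near or below the shares of 9.41% and 6.55% over all genes, and the median difference was -0.03. Foxo1, the insulin-restrained activator of G6pc and Pck1, read 1.67 and 1.90 in DMSO and 2.07 and 2.26 in GW3965 for a and b. Both GW3965 arrays were above both DMSO arrays, with a difference of 0.38 ± 0.20 (SE, n = 2 per group) and an unadjusted limma p of 0.125. On another kept probe of Foxo1 the difference was 0.22 ± 0.19 (SE). The other genes without overlap, named after their values were seen, were Foxo3, Ppargc1b and Prkaca upward, by 0.06 to 0.11, and Prkar1a, a regulatory subunit of protein kinase A, downward by -0.13 ± 0.19. Klf15, a factor that favours amino acid use for glucose, differed by 0.63 ± 0.55, the insulin receptor gene Insr by -0.22 ± 0.21, and Stk11, which encodes the kinase LKB1, by 0.17 ± 0.21, all with overlap. On b, 8 of the 35 were lower and 17 higher in both groups, beside 31.8% and 43.4% of all genes.

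Some regulators had gaps as wide as those of the enzymes; these were chosen after their values were seen. Hnf4a, a nuclear receptor of the hepatocyte programme, had gaps of -1.29 in DMSO and -1.68 in GW3965, and Creb3l3, a liver factor of the fasting response, of -1.51 in each. Nr4a2, an orphan nuclear receptor gene induced by cyclic AMP, had gaps of 1.90 and 1.96, and Trib3, a stress-induced pseudokinase gene, of 1.65 and 1.27. Regulators with wide gaps thus lay on both sides.

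Liver genes that respond to glucocorticoids or cyclic AMP, with enzymes of amino acid breakdown, were all measured (22 of 22), and 0 passed in either direction. Groups did not overlap upward for 2 of 22, Pdk4 and Asl, near the 9.41% of all genes, and downward for 0. The median difference was 0.07, and was 0.34 without DMSO a and -0.25 without GW3965 a. Pdk4, a kinase that closes pyruvate dehydrogenase, differed by 0.27 ± 0.18 and Asl, of the urea cycle, by 0.21 ± 0.19. Otc, also of the urea cycle, differed by -0.29 ± 0.31 (SE, n = 2 per group). Replicate b was lower in both groups for 14 of the 22 and higher for 7, beside 31.8% and 43.4% of all genes. The median gaps of the 22 were -0.54 in DMSO and -0.56 in GW3965. The members' median gaps were -0.71 in DMSO and -0.82 in GW3965, and those of all genes 0.08 and 0.05.

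The opposing direction, glycolysis and glycogen, also showed 0 of 16 measured genes passing, with a median difference of -0.03. Groups did not overlap upward for 2 of 16 and downward for 2 of 16, beside 9.41% and 6.55% of all genes. Pkm, a pyruvate kinase gene, was bright at 5.84 to 6.04 over the arrays and differed by 0.18 ± 0.18. Gckr, a regulator of hepatic glucose use, differed by -0.25 ± 0.23, and both were without overlap. For Gckr the margin was slight, with 0.976 on GW3965 a and 0.977 on DMSO a. Without DMSO b the Gckr difference was -0.02. Ugp2, which makes UDP-glucose for glycogen and was named after its values were seen, differed by -0.10 ± 0.19, also without overlap. Ppp1r3c, a glycogen-targeting phosphatase subunit, differed by -0.56 ± 0.47, and Pfkl, the liver phosphofructokinase, by 0.38 ± 0.43 (SE, n = 2 per group), both with overlap. The Ppp1r3c probe was dim, at -5.61 to -4.22 over the arrays, and its difference was -0.16 with normexp. Replicate b was lower in both groups for 9 of the 16 and higher for 3, beside 31.8% and 43.4% of all genes.

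**Figure D5:**
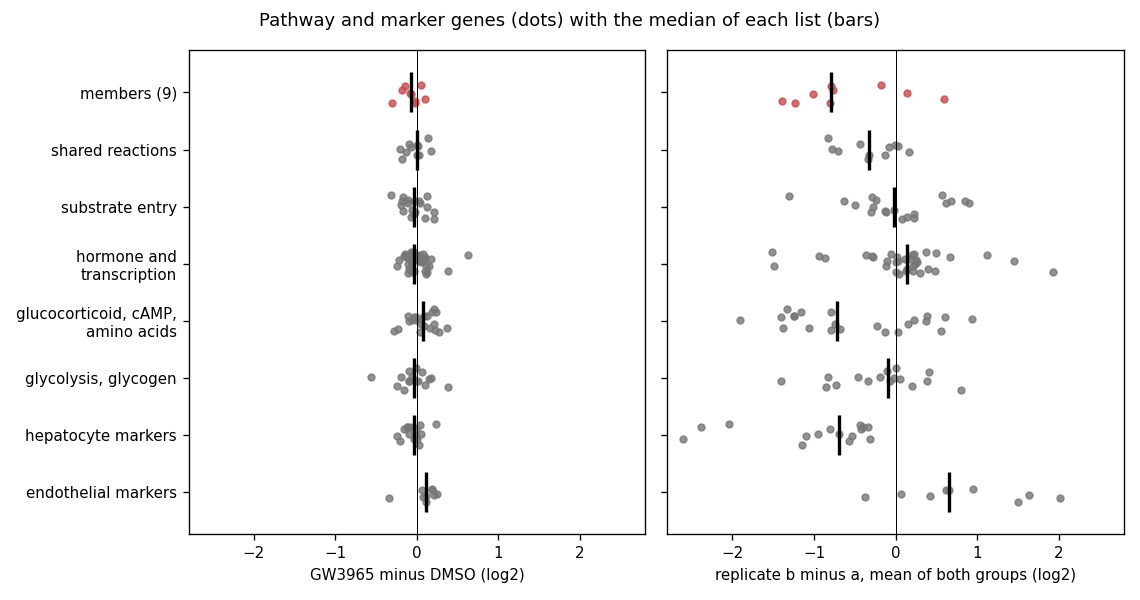
Values of each measured gene of the members (red), of 5 pathway lists and of hepatocyte and endothelial markers (grey), in log2 units on the horizontal axes: the GW3965 minus DMSO difference on the left and the mean gap of replicate b minus replicate a on the right. Points are genes, spread vertically for sight only, and vertical bars are list medians. The differences lie around 0, with pathway medians from -0.08 for the members to 0.07, while all 15 hepatocyte markers and most members lie below 0 in the gap.

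In the LXR check list, Abca1 and Abcg1, which export cholesterol, differed by 2.58 ± 0.39 and 1.98 ± 0.29. Srebf1, the activator of fatty acid synthesis, differed by 1.24 ± 0.20 and Lpcat3, a phospholipid remodelling enzyme, by 1.05 ± 0.21 (SE, n = 2 per group). The adjusted limma p was 1.00 for each, from unadjusted values between 0.00135 and 0.00448. All 4 had an unadjusted p under 0.05, against 0 of the 9 members and 0.824% of all genes.

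For Pck1 and G6pc, the genes with the most similar profile were taken as those whose 4 mean-centred log2 values lay at the smallest Euclidean distance, among 14918 measured features with a RefSeq mRNA accession. For Pck1 these were Enpp3 at 0.060, Ms4a6c at 0.090, Gstt3 at 0.094, Rab38 at 0.102 and Fitm1 at 0.109. For G6pc they were Tmlhe at 0.029, Stx11 at 0.034, Pmel at 0.037, Klhl1 at 0.040 and Neurl3 at 0.042. With 4 arrays, likeness of profile is a description of these libraries alone.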

How the data were processed

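Each sample was total RNA labelled with Cy3 on its own single-colour array of Agilent design 028005. Per the file headers, the deposited intensity values are processed signals from Feature Extraction 10.7.3.1, background-corrected, on a linear scale and not scaled between arrays. Version 11.5.1.11 stands in the submitters' processing notes. The authors' deposited value table holds the same intensities (largest difference 0 over 62976 features), with column medians of 35.5 for DMSO a, 42.7 for DMSO b, 34.2 for GW3965 a and 49.6 for GW3965 b.

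Outlier spots (83 to 141 of 59305 an array) were left out, spots of a probe were averaged on the log2 scale, and the array's 75th percentile was subtracted. Probes that exceeded background clearly on each array of 1 or both groups were kept (35481). The probe with the highest mean stood for a gene. Groups were compared over all 24637 genes and named features with limma 3.58.1 in R 4.3.3, two-sided, with 2 residual and 2.72 prior degrees of freedom, an adjusted p threshold of 0.05 and no block. The R package data.table (version 1.17.8), pandas 2.3.3, numpy 2.4.6 and matplotlib 3.10.9 were also used, and the code was tested on simulated data. Probe positions are on mm9, per the file headers, and exon and UTR annotation of that build was not used here. Promoters came from a RefSeq table of GRCm38.p6.

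The members and lists were chosen with earlier results of these data known. The rule named each member and each of its probes, every LXR check gene, up to 4 genes of each list with the smallest p, and the 5 nearest profiles to Pck1 and G6pc, and some of the listed genes it names are not given by name here. Alternatives changed the scaling, the background correction, the source of the values, the filter, the probe rule, the variance prior, the threshold, the replicate block and the arrays included. Older symbols were brought to current ones for Gk, Mpc1, Mpc2, Pkm, Trf and Adgre1. G6pc2, Lrat, Cd163 and Krt7 did not pass the filter.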

Additional observations from a re-analysis of the deposited data

How the results depend on the processing

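The count of members called was 0 under every alternative run. Of 137 values of single members under an alternative, 18 had the other sign, all but 2 of them with an array left out. The exceptions were Slc37a4 at 0.24 as the mean of its probes and at 0.62 on its second probe alone. Both values include that second probe, which passed the filter only through GW3965, where it read higher, so neither carries weight. Insr, no member, was 0.10 on another probe. No scaling between the arrays is not among the 137 values, and there Pcx was 0.006 and Tat 0.002, against -0.02 and -0.03 with scaling. Leaving out each array in turn gave differences of -0.94 to 0.32 for Pck1, -0.24 to 0.45 for Pck2, -0.17 to 0.27 for G6pc, -0.58 to 0.22 for Fbp1, -0.44 to 0.39 for Pcx, -0.73 to 0.57 for Ppargc1a, -0.19 to 0.033 for Crtc2, -0.74 to 0.69 for Tat and -0.63 to 0.35 for Slc37a4, with a median over members of 0.27 without DMSO a, -0.43 without DMSO b, -0.54 without GW3965 a and 0.29 without GW3965 b. For other named genes with a change of sign the range was -0.19 to 0.53 for Fbp2 and -0.0064 to 1.26 for Klf15. It was -0.38 to 0.011 for Mdh1, -0.34 to 0.082 for Mdh2 and -0.60 to 0.027 for Otc. For Pfkl it was -0.053 to 0.82, for Ppp1r3c -1.20 to 0.079 and for Slc2a2 -0.67 to 0.041. Insr ran from -0.35 to 0.072, but both ends came from another probe, as the brightest was chosen anew on the arrays left. Its change of sign is therefore a change of probe. The lone array is assumed to vary like the other group. With an array left out the letters are unbalanced, so the gap between replicates enters each of these differences. The number of genes called for treatment was 0 to 1 with an array left out (1 without DMSO b) and 15 with the replicate letter as a block. The letters share only a name in the labels. With the block, 0 members were called and the smallest member p was 0.0529 for Pck1 (adjusted p = 0.930), whose SE was 0.13 in that fit and 0.59 without the block. The same fit called 5291 genes for the letter (21.5% of all), and 7 of 9 members, all but G6pc and Crtc2. Quantile normalization gave 3371 genes called for the letter (13.7% of all) and 5 members, and centring on the median 5281 genes (21.4%) and 6 members. Normexp gave 8197 genes (33.3%) and 7 members. With no filter on dim probes, 407 of 35077 genes and named features (1.16%) and 0 members were called for the letter. Centring on the median moved the median difference of all genes by -0.06. Dim signals limit Pck1, Pck2, G6pc, Ppargc1a and the second Slc37a4 probe. Of the listed genes they limit Aqp3, Ppp1r3c, Fbp2, Ppargc1b and Klf15, among others.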
